A study of Mus musculus with 2 samples.

Results

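The genes described here are 31 of the 31053 genes counted in the study: 22 that encode glucose and lactate transporters, enzymes and enzyme regulators of glycolysis, and 9 that respond to, encode or control the hypoxia-inducible factor. They were taken by symbol from a fixed list, and each symbol was found in both libraries. Their transcripts were counted in 2 single-cell RNA sequencing libraries of lung immune cells, 1 from tamoxifen-injected and 1 from oil-injected adult mice, both of the genotype that the labels spell Gli1creERT/Hhipflo/flox. All animals thus carried a tamoxifen-inducible Cre driven by Gli1, a gene active in Hedgehog-responsive mesenchymal cells, and floxed Hhip, which encodes a surface protein that binds Hedgehog ligands. Tamoxifen lets this Cre delete floxed Hhip, while oil is the vehicle. Hhip itself had 30 UMIs in 14 barcodes of the tamoxifen library and 50 UMIs in 28 barcodes of the oil library, and Gli1 had 9 UMIs in each, too few in these sorted cells to check the deletion. The sorted cells were live, positive for CD45 and negative for a CD45 antibody injected into the blood 3 min before death, which leaves out cells inside vessels. The labels call the animals adult and do not give their number, sex or strain, and no tamoxifen-injected mice without the Cre were analysed here.

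Glycolysis breaks glucose down to pyruvate, which is either oxidised in mitochondria or reduced to lactate and exported. Immune cells that are activated commonly shift towards lactate production, and neutrophils rely on it for most of their energy. Hypoxia-inducible factor 1, whose alpha subunit is encoded by Hif1a, binds DNA when oxygen is low or when inflammatory signals stabilise it, and it raises transcription of most glycolytic enzymes together with Vegfa, Bnip3, P4ha1, Ndrg1 and the Egln hydroxylases that in turn mark the factor for destruction.

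The tamoxifen library held 83730550 unique molecular identifiers (UMIs, each standing for 1 captured transcript) in 12980 cell barcodes and the oil library 57704412 in 10342. Barcodes with at least 300 genes and under 10% mitochondrial UMIs numbered 10138 in tamoxifen and 6794 in oil, with medians of 6431 and 6360.5 UMIs, and 41 barcodes occurred in both libraries. Cells were sorted into 10 gates by UMIs of a few marker genes, and a barcode counted in each gate that it met. More than 1 gate was met by 27.5% of tamoxifen and 31.3% of oil barcodes. Independent markers were all highest in the gate of their name for neutrophils, cDC1 (conventional type 1 dendritic cells) and B cells. Even so, only 74 of 315 neutrophil-gate barcodes in tamoxifen and 36 of 99 in oil met no other gate. Independent markers did not set the cDC2 and ILC2 gates apart. Only 1 of 7 cDC2 markers in tamoxifen and 0 of 7 in oil were highest in the cDC2 gate. Of the ILC2 gate, 65.6% in tamoxifen and 62.1% in oil also met the cDC2 gate. In oil, 0 of 8 alveolar macrophage markers were highest in the alveolar macrophage gate, against 8 of 8 in tamoxifen. Of 8 markers of monocyte-derived cells, 1 in tamoxifen and 2 in oil were highest in the Ly6i Chil1 Gpnmb gate described further on. Levels are in CPM, the UMIs of a gene over all UMIs of its gate and library, scaled in the usual way. Each group is a single library, so nothing here was tested over animals, all intervals cover counting error only, and what separates the libraries besides the injection cannot be told apart from it. A sum over a gate also cannot tell fewer expressing cells from less RNA per cell.

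The letters that hypoxia-inducible factors bind, ACGTG and GCGTG, were searched on both strands in the 250 bases before each RefSeq transcription start (GRCm38.p6, the build of the files), where matches of the 2 may share a base. Promoters were found for 28 of the 31 genes. ACGTG lay in 20 of their 42 promoters (47.6%) and in 16.6% of 32851 promoters of all genes. GCGTG lay in 23 (54.8%) and in 28.2% of all. Some genes have several windows, which can overlap, and each window was counted. The list was chosen for glycolysis and the hypoxia response, and the difference from all promoters was not tested. The promoters of P4ha1 and Hk2, the gene lower in tamoxifen in most gates and the gene with the largest lower ratio, are printed 5′ to 3′ with these letters in capitals; the last base of each precedes the start. The P4ha1 window is chr10:59323046-59323295 on the plus strand, upstream of the gene (ENSMUSG00000019916), and its nearest match begins 16 bases before the start. The Hk2 window is chr6:82774455-82774704 on the minus strand, upstream of the gene (ENSMUSG00000000628), with matches that begin 226 and 52 bases before the start.
P4ha1: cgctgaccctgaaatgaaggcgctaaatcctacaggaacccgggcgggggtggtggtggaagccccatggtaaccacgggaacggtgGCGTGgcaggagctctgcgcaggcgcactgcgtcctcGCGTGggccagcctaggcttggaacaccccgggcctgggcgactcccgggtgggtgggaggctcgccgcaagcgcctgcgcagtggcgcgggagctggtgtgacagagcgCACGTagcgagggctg
Hk2: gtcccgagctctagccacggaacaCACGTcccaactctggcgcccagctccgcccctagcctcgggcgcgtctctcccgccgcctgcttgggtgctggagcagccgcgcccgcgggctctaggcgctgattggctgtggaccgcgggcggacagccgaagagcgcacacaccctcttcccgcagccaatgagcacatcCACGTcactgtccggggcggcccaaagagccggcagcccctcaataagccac
The matches describe these windows and say nothing of whether the factor was bound.

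For 15 of the 31 genes the same gate was highest in both libraries, and the B cell gate was lowest for 19 in tamoxifen and 17 in oil. CD3 barcodes with at least 3 Il17a UMIs, which hold interleukin-17-producing T cells, were highest in both libraries for Hk1 and Ldha, for Hif1a and its hydroxylase Egln1, and for Ero1l, an oxidase of the endoplasmic reticulum. Hif1a reached 394 CPM there in tamoxifen and 239 in oil, against 80.0 and 76.2 CPM in the cDC1 gate of each. Ldha, the lactate dehydrogenase subunit that favours lactate, stood at 397 CPM in tamoxifen and 344 in oil there, and its lowest level was in B cells, at 162 and 132 CPM. The neutrophil gate was highest for Slc16a3, the lactate exporter of glycolytic cells, with 145 CPM (interval 132 to 160) in tamoxifen and 76.7 CPM (58.5 to 98.8) in oil. The next gate reached 57.6 and 21.9 CPM, so its place at the top was clear in both libraries.

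The gate of barcodes with Ly6i, Chil1 and Gpnmb UMIs, genes of inflammatory and lipid-handling macrophages, was highest in both libraries for Aldoa, Tpi1, Gapdh and Pgam1, enzymes of the middle and lower pathway. Gapdh stood there at 1240 CPM in tamoxifen and 1041 in oil, and Aldoa at 609 and 610 CPM. cDC1 led for Pfkp, the platelet form of phosphofructokinase that commits sugar to the pathway, at 181 CPM in tamoxifen and 188 in oil. C1q macrophages led for P4ha1, the catalytic subunit of collagen prolyl hydroxylase, at 98.3 and 152 CPM, although in tamoxifen its interval overlapped that of the ILC2 gate. The interval of the highest gate overlapped that of the next in both libraries for Pfkm, Pfkfb3, Pgk1, Slc16a1, Pdk1, Egln1, Egln3 and Ndrg1. In oil alone it did so for Hk1, Pfkl, Pfkfb4, Tpi1, Pkm, Bnip3 and Vegfa. In tamoxifen alone it did so for Slc2a1, Gpi1, Eno1, Ldhb and P4ha1.

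**Figure D1:**
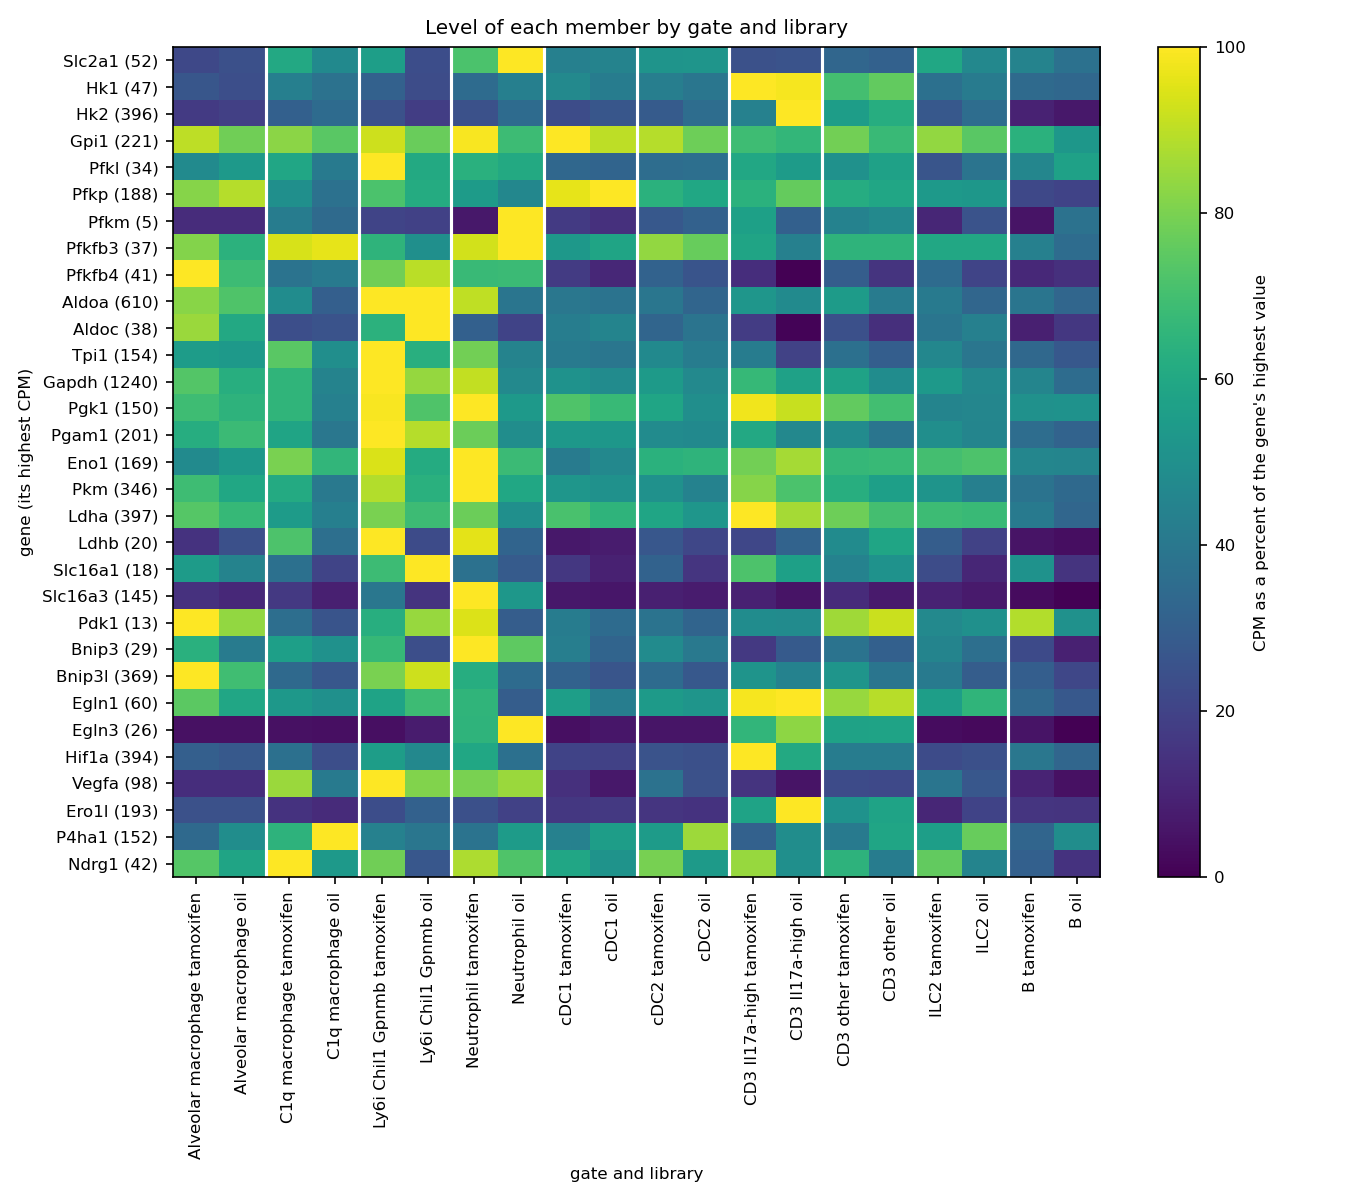
Level of each of the 31 genes (down) in each gate and library (across; tamoxifen left of oil), as a percent of the gene's own highest CPM, which stands in brackets. Yellow patches fall in the Il17a-high CD3, Ly6i Chil1 Gpnmb and neutrophil gates, and the B cell columns at the right are dark, lowest for 19 genes in tamoxifen and 17 in oil.

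Shares within a family of isozymes do not depend on scaling, and they are given here gate by gate. Hk3, a hexokinase of myeloid cells, made up 90 of 437 Hk1, Hk2 and Hk3 UMIs in neutrophils in tamoxifen (20.6%) and 31 of 155 in oil. It made up 18.5% in tamoxifen and 18.9% in oil in the Ly6i Chil1 Gpnmb gate, and at most 7.42% in the other gates. Slc2a3, the glucose transporter with high affinity, supplied 69.5% of Slc2a1 and Slc2a3 UMIs in Il17a-high T cells in tamoxifen and 68.2% in oil, against 15.4% and 12.99% in cDC1. Egln3, a hydroxylase that hypoxia itself induces, supplied 22.0% of Egln1 and Egln3 UMIs in Il17a-high T cells in tamoxifen and 26.0% in oil, and 22.4% and 21.6% in the other CD3 barcodes. In the neutrophil gate it supplied 29.6% in tamoxifen and 58.8% in oil, and in the macrophage, dendritic, ILC2, B and Ly6i Chil1 Gpnmb gates at most 6.02%. Barcodes of the neutrophil gate alone had 32 Egln3 and 1 Egln1 UMIs in tamoxifen, and 18 and 2 in oil. The shares of the whole gate thus include Egln1 of barcodes that also met other gates. Ldha supplied 93.9% or more of Ldha and Ldhb UMIs in each gate and library. These are shares of transcript ends counted, not of enzyme.

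A gene was called different between the libraries in a gate with at least 100 UMIs summed over both and at least a 1.5-fold ratio of CPM. Over the 10 gates, 265 pairs of a gene and a gate were measured, of which 44 (16.6%) were higher and 8 (3.02%) lower in tamoxifen. Over all genes, 7.26% of 80215 pairs were higher and 3.82% lower. Pairs that share barcodes are not independent. The C1q, Ly6i Chil1 Gpnmb and neutrophil gates held 9, 8 and 11 of the higher calls, and these gates drew different kinds of barcodes in the 2 libraries. Values are therefore also given for what are called unmixed barcodes, those that met none of the alveolar macrophage, Ly6i Chil1 Gpnmb, neutrophil, CD3 and B gates besides their own, a choice made after the overlaps were seen. Counts of calls among unmixed barcodes, or among barcodes of 1 gate alone, stand without the share of all genes called there. The whole-gate share cannot replace it. Hk1, Gpi1, Pfkp, Pfkm, Pfkfb3, the pyruvate dehydrogenase kinase Pdk1 and Egln3 were called in no gate, with log2 ratios from -0.33 to 0.54 where measured.

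**Figure D2:**
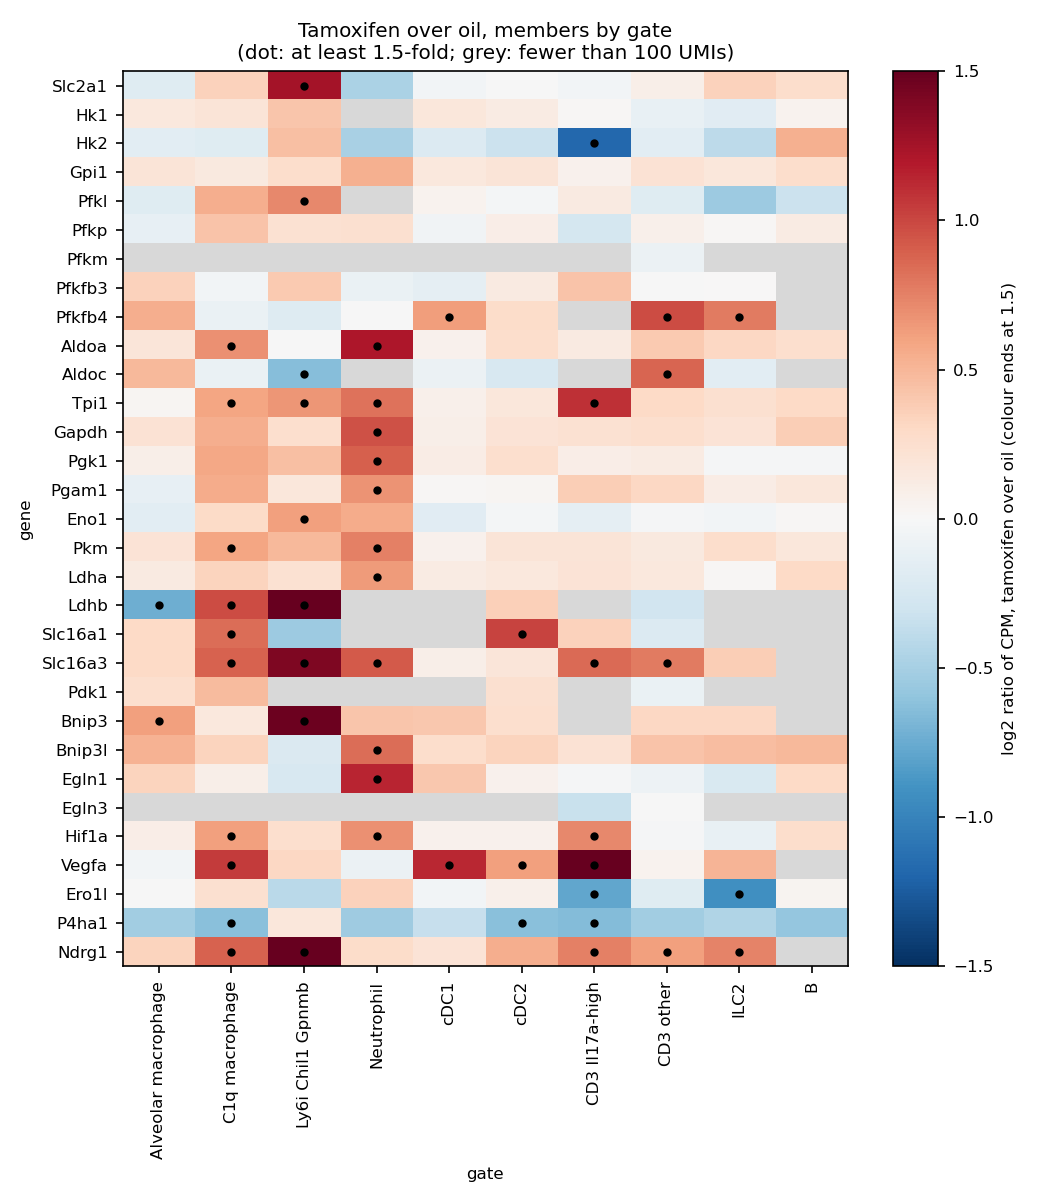
Log2 ratio of CPM, tamoxifen over oil, for each gene (down) in each gate (across), with red higher in tamoxifen, a dot where the ratio is at least 1.5-fold and grey where fewer than 100 UMIs were counted. Dots crowd in the C1q, Ly6i Chil1 Gpnmb and neutrophil columns, the P4ha1 row is blue in 9 of 10 gates and the Ndrg1 row red in 9 of 9 measured gates.

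C1q macrophages, tissue macrophages named for the complement genes that gate them, had higher levels of 9 of 29 measured genes in tamoxifen and a lower level of 1, beside 5.10% and 2.92% of all genes in that gate. The median log2 ratio of the 29 was 0.43, and that of all genes 0.08. Vegfa, the vascular growth factor, stood at 83.1 CPM in tamoxifen and 40.1 CPM in oil, a log2 ratio of 1.05 (interval 0.89 to 1.21). Ndrg1, a stress-responsive gene whose protein takes part in vesicle traffic and differentiation, stood at 42.5 CPM in tamoxifen and 23.0 CPM in oil (0.89, 0.68 to 1.10). The other higher genes were Aldoa with 297 CPM in tamoxifen and 185 in oil (0.69), Tpi1 (0.60), Pkm (0.60), Hif1a (0.62), the lactate dehydrogenase subunit Ldhb (0.98) and both lactate transporters, Slc16a1 (0.83) and Slc16a3 (0.89). P4ha1 was the gene with the lower level, at 98.3 CPM in tamoxifen and 152 in oil (-0.63).

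Other cells in the gate moved with these values. Alveolar macrophage markers summed to 771 CPM in the C1q gate in tamoxifen and 304 CPM in oil, with none of the 8 at 0 in either, and 10.1% of its barcodes in tamoxifen and 0.983% in oil also met the Ly6i Chil1 Gpnmb gate. Among the 782 unmixed barcodes in tamoxifen and 891 in oil, 2 of 27 measured genes were higher and 0 lower. The median was 0.21, beside 0.03 over all genes. Those 2 were Vegfa, with 72.2 CPM in tamoxifen and 39.6 in oil (0.87), and Ndrg1, with 41.2 and 23.0 CPM (0.84). Aldoa, at 203 CPM in tamoxifen and 174 in oil, came to 0.22 there and Hif1a to 0.21. P4ha1 came to -0.56, just under the fold required. Unmixed barcodes can still meet the cDC1, cDC2 and ILC2 gates. Of all C1q-gate barcodes, 69.7% in tamoxifen and 86.7% in oil also met the cDC2 gate. In the 171 tamoxifen and 107 oil barcodes of the C1q gate alone, some ratios were larger than in the whole gate and others smaller. Hif1a came to 0.88, Pkm to 0.81 and Tpi1 to 1.06 in that set. Vegfa came to 0.71, Aldoa to 0.59 and P4ha1 to -0.59, and Ldhb, with 20 and 14 UMIs, to -0.45. There 7 of 15 measured genes were higher and 1 lower, with a median of 0.56 beside 0.10 over all genes. Fewer genes were measured there than in the whole gate, and the share of all genes called in that set is not given.

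The sex of the cells, read from Xist and genes of the Y chromosome, moved with the result as well. Hif1a in C1q barcodes had a log2 ratio of 0.88 in female and -0.18 in male cells, and Vegfa one of 1.01 in female and 0.22 in male cells. Ndrg1 was higher in both, at 0.91 and 0.70. Female cells made up 71.9% of the sexed C1q barcodes in tamoxifen and 66.8% in oil, and the part of sex in the result was not tested.

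**Figure D3:**
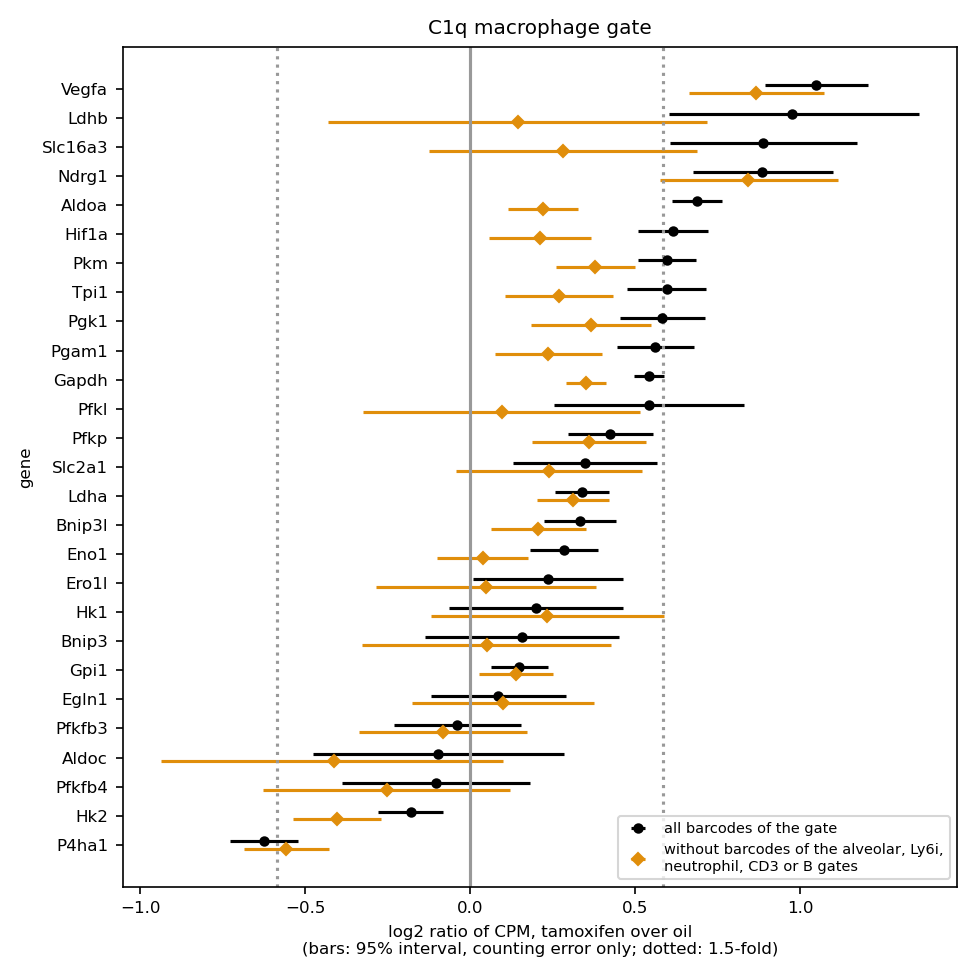
Log2 ratio of CPM, tamoxifen over oil, in the C1q macrophage gate for the genes measured both ways, from all barcodes (black) and from unmixed barcodes (orange), with 95% counting intervals and dotted lines at 1.5-fold. Most orange points lie closer to 0 than the black ones, while Vegfa (0.87) and Ndrg1 (0.84) stay beyond the line at the right.

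Il17a-high T cells differed in the gene that phosphorylates glucose. Hk2, the inducible hexokinase at the entry of glycolysis, stood at 175 CPM (interval 165 to 186) in tamoxifen and 396 CPM (372 to 421) in oil, a log2 ratio of -1.18 (-1.31 to -1.05) and the largest lower call of the list in any gate. In this gate 5 of 25 measured genes were higher and 3 lower in tamoxifen, beside 12.8% and 2.93% of all genes. The other lower genes were Ero1l, with 112 CPM in tamoxifen and 193 in oil (-0.78), and P4ha1, with 47.4 and 74.6 CPM (-0.65). The higher genes included Hif1a, with 394 CPM in tamoxifen and 239 in oil (0.72), and Tpi1, the triosephosphate isomerase, with 64.5 and 30.2 CPM (1.09). Ndrg1 followed with 35.9 CPM in tamoxifen and 21.2 in oil (0.76). Slc16a3 (0.85) and Vegfa (1.51) rested on 19 and 13 UMIs in oil. Hk1, which is made constitutively, stood at 47.4 CPM in tamoxifen and 46.7 in oil (0.02, -0.29 to 0.34).

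This gate was the least mixed of the 10, with 780 of 886 tamoxifen and 320 of 345 oil barcodes in no other gate. Among those, Hk2 came to -1.13, Hif1a to 0.81, Ero1l to -0.72 and Tpi1 to 1.24. All but Slc16a3 and Vegfa of the 8 calls, those 2 having under 100 UMIs there, were also made among unmixed barcodes, where Slc16a3 had 8.09 CPM in tamoxifen and 7.57 CPM in oil. RNA of other cells was nevertheless more frequent in tamoxifen, where S100a8 and S100a9, defining genes of neutrophils, summed to 671 CPM against 4.71 CPM in oil. A barcode kept an Hk2 UMI after thinning to 1500 UMIs in 16.9% of 854 tamoxifen and 32.5% of 338 oil barcodes (exact binomial intervals 14.4% to 19.5% and 27.6% to 37.8%; 32 and 7 shallower barcodes left out), at median depths of 5725 and 6837 UMIs before thinning. The unthinned shares were 32.6% and 57.4%, and B cells, which had the lowest Hk2 levels, had thinned shares of 3.66% and 3.49%.

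The gate held different T cells in the 2 libraries. A Cd4 UMI was present in 42.3% of its barcodes in tamoxifen and 21.4% in oil. Barcodes with a Cd4 UMI had 52.1 CPM of Hk2 in tamoxifen and 111 CPM in oil (-1.10), and barcodes without one had 273 and 479 CPM (-0.81), a split made after the values were seen. Hk2 was thus lower in tamoxifen on both sides of the split, and it was also several times lower with Cd4 than without in each library. Hif1a ran the other way, at 521 CPM in tamoxifen and 416 in oil with Cd4 (0.33) and at 292 and 187 CPM without (0.64). In female cells Hk2 came to -1.37, with 147 CPM in tamoxifen and 380 in oil, and in the 95 and 65 male cells to -0.37, with 406 and 525 CPM. Male cells had more Hk2 than female cells in both libraries, and sexed barcodes were 87.6% female in tamoxifen and 78.4% in oil.

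**Figure D4:**
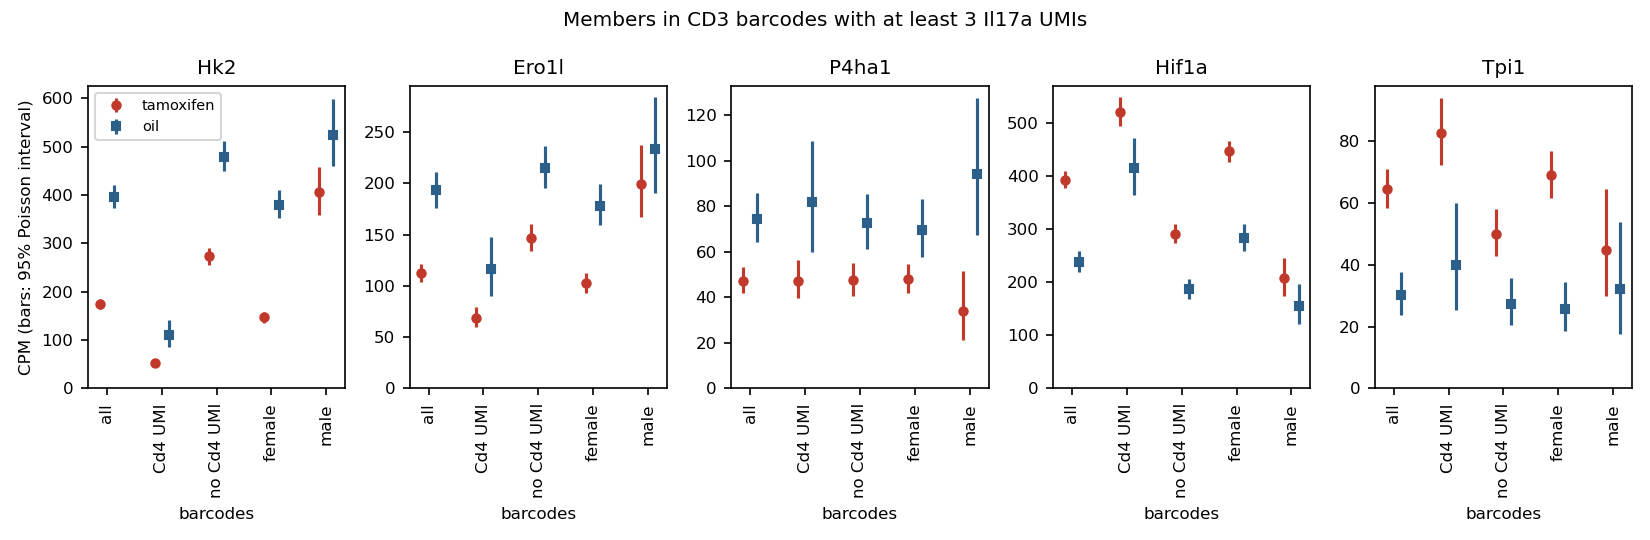
CPM of Hk2, Ero1l, P4ha1, Hif1a and Tpi1 in CD3 barcodes with at least 3 Il17a UMIs, for all barcodes, with or without a Cd4 UMI, and by sex of the cell, with tamoxifen (red) left of oil (blue) and 95% Poisson bars. Hk2, Ero1l and P4ha1 lie lower in tamoxifen in each of the 5 sets and Hif1a and Tpi1 higher, with bars that overlap in male cells for Ero1l, Hif1a and Tpi1.

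In the neutrophil gate 11 of 23 measured genes were higher in tamoxifen and 0 lower, beside 11.9% and 7.77% of all genes, and the median of 0.56 compares with 0.06 over all genes. They ran along the pathway: Aldoa with 551 CPM in tamoxifen and 237 in oil (1.22), Gapdh with 1127 and 582 CPM (0.95), Pgk1 (0.89), Tpi1 (0.82), Pkm (0.75), Pgam1 (0.67), Ldha (0.64) and the exporter Slc16a3 (0.92). Egln1 (1.15), Hif1a (0.69) and Bnip3l, a receptor for the removal of mitochondria (0.83), made up the rest. The gate held 315 tamoxifen and only 99 oil barcodes, and their makeup differed. Its 8 neutrophil markers summed to 42218.5 CPM in tamoxifen and 5488 CPM in oil, with none at 0, S100a8 standing at 20197 and 1690 CPM and the receptor Cxcr2 at 165 and 137 CPM. Markers of C1q macrophages summed to 2887 CPM in the gate in tamoxifen and 6636 CPM in oil, where they exceeded the neutrophil markers. C1q barcodes made up 19.0% of the gate in tamoxifen and 38.4% in oil, and alveolar macrophage barcodes 33.3% and 8.08%. Among 99 unmixed tamoxifen and 71 unmixed oil barcodes, 7 of 13 measured genes were higher, with a median of 0.78 beside 0.02 over all genes. Slc16a3 with 208 and 54.3 CPM (1.94) and Aldoa with 410 and 175 CPM (1.23) were among the 7. These barcodes can still meet the C1q, cDC1, cDC2 and ILC2 gates. Among the 74 tamoxifen and 36 oil barcodes in no other gate, Slc16a3 had 374 and 214 CPM (0.80). Aldoa had 461 and 253 CPM in that set (0.87). Hif1a came to 0.21 among unmixed barcodes and to -0.37 among the 74 and 36 barcodes in no other gate.

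The Ly6i Chil1 Gpnmb gate, with 524 barcodes in tamoxifen and 137 in oil, had 8 of 28 measured genes higher in tamoxifen and 1 lower, beside 8.04% and 6.22% of all genes. Slc16a3 stood at 57.6 CPM in tamoxifen and 21.9 in oil (1.39), Ndrg1 at 33.3 and 11.5 CPM (1.54), and the glucose transporter Slc2a1 at 29.5 and 12.5 CPM (1.24). Ldhb had 19.8 CPM in tamoxifen and 4.48 CPM in oil (2.14), from 151 and 9 UMIs. Bnip3, a partner of Bnip3l in mitochondrial removal (1.48), Pfkl (0.72), Tpi1 (0.67) and the enolase Eno1 (0.62) were also higher, and the aldolase Aldoc was lower, at 24.4 and 37.9 CPM (-0.64). Here too the barcodes differed: 55.0% in tamoxifen and 74.5% in oil also met the alveolar macrophage gate, alveolar macrophage markers summed to 8899 and 20091 CPM, and neutrophil markers to 14452 and 3078 CPM. Keeping only unmixed barcodes left 123 in tamoxifen and 25 in oil, with 5 of 16 measured genes higher, Slc16a3 among them (1.40). The median was 0.35 there, beside 0.01 over all genes. Such barcodes can still meet the C1q gate, which 24.4% of the whole gate in tamoxifen and 8.76% in oil met. In the 42 tamoxifen and 14 oil barcodes of this gate alone, Slc16a3 had 29 UMIs in tamoxifen and 1 in oil.

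Alveolar macrophages, the cells that clear the air spaces, had 1 of 29 genes higher and 1 lower in tamoxifen, beside 9.11% and 6.18% of all genes, with 2507 barcodes in tamoxifen and 476 in oil. Bnip3 stood at 18.4 CPM in tamoxifen and 12.005 in oil (0.61) and Ldhb at 2.88 and 4.80 CPM (-0.74). cDC1 had 2 of 26 genes higher and 0 lower, beside 5.25% and 1.64% of all genes: Vegfa with 13.5 CPM in tamoxifen and 6.18 in oil (1.13), and Pfkfb4, an enzyme that tunes the flux through phosphofructokinase, with 7.20 and 4.66 CPM (0.63). The cDC2 gate had 2 of 29 genes higher and 1 lower, beside 3.68% and 1.87%: Slc16a1 with 5.65 CPM in tamoxifen and 2.79 in oil (1.02), Vegfa with 36.9 and 24.1 CPM (0.62), and P4ha1 with 83.4 and 129 CPM (-0.63). About as many barcodes of this gate in tamoxifen, 53.0%, as in oil, 52.0%, also met the C1q gate. Among the 1617 unmixed alveolar macrophage barcodes in tamoxifen and 304 in oil, the median was 0.17, beside 0.22 over all genes. There 4 of 28 measured genes were higher and 2 lower, and neither Bnip3 nor Ldhb was among them. The higher ones were Aldoc with 33.0 CPM in tamoxifen and 14.7 in oil (1.17), Slc16a1 (0.82), Pfkfb4 (0.79) and Bnip3l (0.76), and the lower ones Vegfa with 9.73 and 17.96 CPM (-0.88) and P4ha1 with 50.6 and 77.6 CPM (-0.62). Of the dendritic cell calls, Vegfa in the cDC2 gate was also made among unmixed barcodes, with 42.2 CPM in tamoxifen and 25.7 in oil (0.715).

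CD3 barcodes with fewer than 3 Il17a UMIs, the largest gate, had 4 of 31 genes higher and 0 lower, beside 6.86% and 4.19% of all genes. Pfkfb4 stood at 12.2 CPM in tamoxifen and 6.16 in oil (0.98), Aldoc at 9.28 and 5.07 CPM (0.87), Slc16a3 at 17.6 and 10.3 CPM (0.77) and Ndrg1 at 27.5 and 17.9 CPM (0.62). None of the 4 was called among unmixed barcodes, where Slc16a3 had 7.14 CPM in tamoxifen and 8.05 in oil. Neutrophil markers had summed to 3607 CPM in the whole gate in tamoxifen and to 510 CPM in oil. The ILC2 gate had 2 of 26 genes higher and 1 lower, beside 5.89% and 3.98%: Pfkfb4 (0.78), Ndrg1 with 32.3 CPM in tamoxifen and 19.2 in oil (0.75), and Ero1l with 20.6 and 39.0 CPM (-0.92). Ndrg1 (0.97) and Ero1l (-1.02) were also called among unmixed barcodes of that gate, which can still meet the C1q and cDC2 gates. In the 75 tamoxifen and 253 oil barcodes that met the ILC2 gate alone, Ndrg1 had 0 UMIs in tamoxifen and 8 in oil, and Ero1l had 61.6 CPM in tamoxifen and 99.4 in oil (-0.69). B cells had 0 of 19 genes called, beside 8.11% higher and 1.45% lower over all genes, with no test behind this count.

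P4ha1 was the gene with the lower value in tamoxifen in most gates, 9 of 10, with log2 ratios from -0.65 to 0.17. The exception was the Ly6i Chil1 Gpnmb gate, at 66.7 CPM in tamoxifen and 59.3 in oil. Over all kept barcodes it stood at 62.6 CPM in tamoxifen and 100.04 CPM in oil (-0.68, -0.73 to -0.62). It was as much lower in data that no gate uses, with 60.8 and 97.6 CPM in barcodes that met no gate (-0.68) and 77.5 and 125 CPM in those over the mitochondrial limit (-0.69). The gates share barcodes, but among barcodes that met exactly 1 gate P4ha1 was also lower in each of the 7 gates measured, by -0.83 to -0.21.

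The ratio of P4ha1 lay farther from 0 in male than in female cells, a split chosen after its values were seen and not tested. In C1q macrophages male cells had 106 CPM in tamoxifen and 221 CPM in oil (-1.07), and female cells had 95.3 and 113 CPM (-0.24). In the cDC2 gate male cells had 89.96 CPM in tamoxifen and 175 in oil (-0.96), and female cells had 79.6 and 101 CPM (-0.34). CD3 barcodes with little Il17a had 60.8 CPM in tamoxifen and 121 in oil in male cells (-0.99), and 62.6 and 76.8 CPM in female cells (-0.30). Within the oil library male cells exceeded female cells in 9 of 9 gates with at least 100 UMIs, with a median log2 ratio of male over female of 0.65, and within the tamoxifen library in 4 of 10, with a median of -0.05. Among the genes measured in at least 4 gates of the oil library by sex, P4ha1 was the one with more in male cells in each. Which animals the male cells came from is not in the labels, so sex, animal and injection cannot be told apart here.

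**Figure D5:**
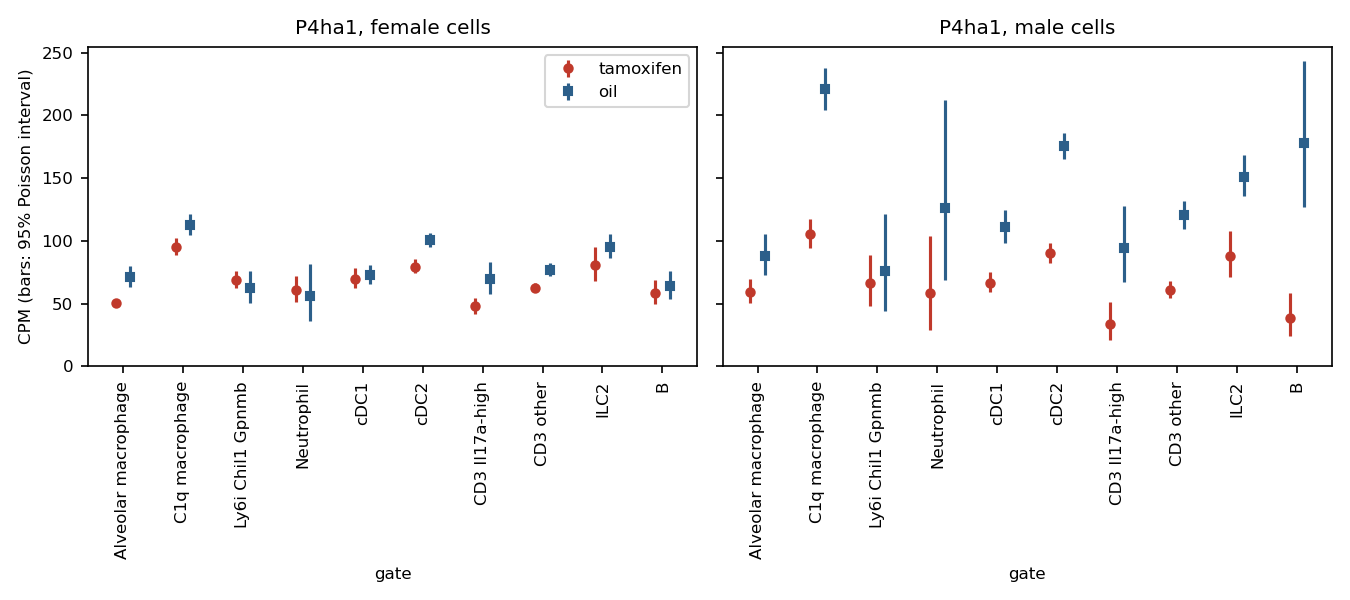
CPM of P4ha1 in female cells (left panel) and male cells (right panel) of each gate, with tamoxifen (red) left of oil (blue) and 95% Poisson bars. Male cells of the oil library reach 221 CPM in C1q macrophages, above the 106 CPM of male tamoxifen cells, while female values lie close together, at 95.3 CPM in tamoxifen and 113 CPM in oil.

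Ndrg1 had a higher value in tamoxifen in 9 of 9 measured gates, with log2 ratios from 0.20 to 1.54, and was called in 5. Among unmixed barcodes it was above 0 in 5 of 7 gates, with 32.62 CPM in tamoxifen and 32.65 in oil in alveolar macrophages. Within each library it was lower in male than in female cells in each gate measured, 8 of 8 in tamoxifen and 6 of 6 in oil, with medians of male over female of -0.76 and -0.83. Gpi1, Tpi1, Gapdh, Pkm and Ldha, enzymes along the path from glucose 6-phosphate to lactate, had ratios above 0 in 10 of 10 gates, from 0.02 to 1.09, where 41.0% to 72.1% of all genes in a gate were above 0. They were picked for this count, and other enzymes of the path were above 0 in fewer gates. Aldoa and Pgam1 were so in 9 of 10, Pgk1 in 8 of 10, Pfkp in 7 of 10 and Eno1 in 4 of 10. Of the gates measured, Pfkl was above 0 in 4 of 9, Ldhb in 3 of 5 and Aldoc in 2 of 7. Under median-of-ratios scaling Gpi1, Tpi1 and Ldha were each below 0 in 1 of 10 gates. In male cells Pkm was below 0 in 3 of 8 measured gates and Gpi1 in 2 of 9, and among unmixed barcodes Pkm in 2 of 10. In barcodes of the ILC2 gate alone Gapdh stood at 380 CPM in tamoxifen and 523 in oil (-0.46, -0.77 to -0.16), and Pkm at 170 and 219 CPM (-0.37). The summed CPM of the 22 glycolysis genes was 2628 in tamoxifen and 2331 in oil in the other CD3 barcodes (0.17), and 2583 and 1905 CPM in C1q macrophages (0.44). Summed over the 9 hypoxia genes, the log2 ratio lay between 0.02 in the ILC2 gate and 0.43 in neutrophils. Immediate early and dissociation genes, 16 in all, had summed ratios from -0.52 in neutrophils to 0.08 in the Ly6i Chil1 Gpnmb gate.

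Of 63 further genes of glucose, pyruvate and hypoxia pathways, 43 of 289 measured pairs with a gate were higher in tamoxifen (14.9%) and 19 lower (6.57%). Over all genes, 7.26% of pairs were higher and 3.82% lower. Pygl, the glycogen phosphorylase of liver and myeloid cells, was higher in 8 gates, with 211 CPM in tamoxifen and 109 in oil in alveolar macrophages (0.95) and 36.4 and 14.1 CPM in C1q macrophages (1.37). Its highest levels were in alveolar macrophages and neutrophils, whose RNA was also more frequent in other gates in tamoxifen. Alveolar macrophage markers summed to 896 CPM in Il17a-high T cells in tamoxifen and 27.9 in oil, to 1176 and 163 CPM in cDC1, to 2513 and 661 CPM in the other CD3 barcodes and to 1603 and 414 CPM in the ILC2 gate. Among unmixed barcodes Pygl had 20.3 CPM in tamoxifen and 12.7 in oil in C1q macrophages (0.68), 8.96 and 5.90 CPM in the other CD3 barcodes (0.60), and 11 and 8 UMIs in Il17a-high T cells. In alveolar macrophage barcodes of no other gate it had 268 CPM in tamoxifen and 210 in oil (0.36). Epas1, which encodes the alpha subunit of hypoxia-inducible factor 2, was lower in 5 gates and higher in cDC1 (0.64). It had 12.9 CPM in tamoxifen and 37.1 in oil in alveolar macrophages (-1.52), and 5.29 and 24.6 CPM in the ILC2 gate (-2.22). These are whole-gate values, and 45.5% of ILC2-gate barcodes in tamoxifen and 25.6% in oil also met the C1q gate. Fbp1, an enzyme that runs a step of the pathway backwards to glucose, was lower in the whole gate of alveolar macrophages, at 7.73 CPM in tamoxifen and 23.5 in oil (-1.61). Hmox1, which degrades haem, was higher there, at 95.2 and 62.1 CPM (0.62), and at 102 and 84.0 CPM in barcodes of no other gate (0.28). Il1b, an inflammatory cytokine of myeloid cells, had 331 CPM in Il17a-high T cells in tamoxifen and 180 in oil (0.88), in a gate where neutrophil markers summed to 870 and 43.6 CPM. Among unmixed Il17a-high barcodes Il1b had 189 CPM in tamoxifen and 179.7 in oil (0.07). Ppp1r3b, which targets a phosphatase to glycogen, was lower in Il17a-high T cells, at 72.1 CPM in tamoxifen and 137 in oil (-0.93), with 73.4 and 137 CPM among unmixed barcodes. In C1q macrophages it was higher, at 14.5 and 6.99 CPM (1.06), with 5.26 and 4.55 CPM among unmixed barcodes.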

How the data were processed

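Each deposited matrix gives unnormalized UMI counts by gene and cell barcode. The submitters' processing notes name Cell Ranger 5.0.1 and the build GRCm38 (mm10), and the labels' protocols name 10x Single Cell 3' v3 chemistry. The annotation version and the treatment of doublets are not given in the sources used here. Counts are whole, and no barcode has under 500 UMIs.

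Barcodes with at least 300 genes and under 10% mitochondrial UMIs were kept. The gates were Krt79 plus Plet1 at 2 or more UMIs (alveolar macrophage), C1qa plus C1qb at 5, Ly6i plus Chil1 plus Gpnmb at 3, Csf3r plus Retnlg at 2 (neutrophil), Xcr1 plus Clec9a at 2 (cDC1), Mgl2 plus Cd209a at 1 (cDC2), Cd3d plus Cd3e plus Cd3g at 1, split at 3 Il17a UMIs, Il1rl1 at 1 without CD3 (ILC2) and Cd79a at 2 (B). UMIs were summed per gate and library, and rows that share a symbol (2 for Aldoa) were added. Intervals at 95% are exact Poisson for levels, exact conditional binomial for ratios and Clopper-Pearson for shares, and they cover counting error only. Per gate, up to 8 called genes of the list each way whose interval excludes 0 are named by rule, and up to 3 of the further genes, of which 63 of 64 were found; any further gene was picked with its values known. Cells counted as female with Xist UMIs and none of Ddx3y, Eif2s3y, Kdm5d and Uty, and as male in the reverse case. Promoter windows came from RefSeq. Python 3.11.15, numpy 2.4.6, scipy 1.17.1, pandas 2.3.3 and scanpy 1.11.5 (Scrublet) were used; the doublet alternative removed 822 tamoxifen (8.11%) and 369 oil barcodes (5.44%), since the automatic call marked only 0.0589% in oil. Ratios and intervals were tested on simulated counts. The genes, gates and lists were chosen with earlier results of these data known. Mitochondrial limits, gate thresholds, overlaps, doublets, sex, scaling, UMI minimums and thinning were varied.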

Additional observations from a re-analysis of the deposited data

Results flagged for a closer look

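Aldoc, an aldolase, had opposite directions in different gates, which hold mixed barcodes. Its log2 ratio of tamoxifen over oil was 0.87 in the CD3 barcodes with little Il17a and -0.64 in the Ly6i Chil1 Gpnmb gate. Ldhb likewise had a log2 ratio of 2.14 in the Ly6i Chil1 Gpnmb gate and -0.74 in alveolar macrophages. These differences between gates were not tested, since each group is 1 library. They did not hold under all alternatives given below. Aldoc changed sign in the CD3 gate among unmixed barcodes, and in both gates in male cells. Ldhb changed sign in the Ly6i Chil1 Gpnmb gate in male cells and in alveolar macrophages with doublets removed, from few oil UMIs. Barcodes that met no gate, which the comparisons leave out, had 19.0 CPM of Slc16a3 in tamoxifen (75 UMIs) and 9.40 CPM in oil (39 UMIs), a log2 ratio of 1.01 (interval 0.44 to 1.61).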

How the results depend on the processing

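No paired analysis was possible because each group has 1 library and the labels pair none. Of 552 values of called genes or isozyme shares under alternatives, with no minimum count, 412 lay within the counting interval of the reported value, 119 outside it, and 21 changed sign; the causes were not tested. In 8 further cases 1 library had 0 UMIs and no ratio was taken; in 1 of them, Ndrg1 in barcodes of the ILC2 gate alone, 0 tamoxifen and 8 oil UMIs ran against the reported direction. In male cells the sign changed for Hif1a in C1q macrophages (-0.18), Ldhb (-0.59), Slc16a3 (-0.59), Tpi1 (-0.0496), Pfkl (-0.76) and Aldoc (0.99) in the Ly6i Chil1 Gpnmb gate, Tpi1 in neutrophils (-0.39), Pfkfb4 in cDC1 (-0.0359), Slc16a3 in Il17a-high T cells (-0.34), and Pfkfb4 (-0.10) and Aldoc (-0.55) in the other CD3 barcodes, all but Hif1a from at most 24 oil UMIs. Among barcodes of exactly 1 gate it changed for Ldhb in C1q macrophages (-0.45), Egln1 in neutrophils (-2.29, from 1 and 2 UMIs), Hif1a in neutrophils (-0.37, and -0.18 with stricter gates) and Slc16a3 in the other CD3 barcodes (-0.22). Among unmixed barcodes it changed for Slc16a3 (-0.17) and Aldoc (-0.14) in the other CD3 barcodes. With doublets removed Ldhb in alveolar macrophages came to 2.86, from 2 oil UMIs, and with thinning Slc16a3 in Il17a-high T cells to -0.0153 and Slc16a1 in C1q macrophages to -0.0474.

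Of 122 counts of called genes, 77 stayed within 1.5 times of the reported one. Smaller sets of barcodes leave fewer genes measured, and the share of all genes called under each setting is not given. In male cells the count was 0 of 16 measured genes in alveolar macrophages, 4 of 21 in C1q and 3 of 10 in Ly6i Chil1 Gpnmb. It was 1 of 1 in neutrophils, 1 of 18 in cDC1 and 0 of 12 in Il17a-high T cells. In female cells it was 1 of 22 in cDC1, 1 of 28 in cDC2, 5 of 21 in Il17a-high T cells and 1 of 15 in B cells. Among unmixed barcodes it was 6 of 28 in alveolar macrophages, 2 of 27 in C1q, 5 of 16 in Ly6i Chil1 Gpnmb and 7 of 13 in neutrophils. There it was also 0 of 23 in cDC1, 1 of 26 in cDC2, 0 of 30 in the other CD3 barcodes and 1 of 14 in B cells. Exactly 1 gate gave 3 of 4 in neutrophils, 0 of 28 in the other CD3 barcodes, 1 of 10 in ILC2 and 1 of 13 in B cells. Stricter gates gave 1 of 28 in alveolar macrophages, 6 of 11 in neutrophils, 1 of 25 in cDC1 and 2 of 19 in B cells. Thinning to 1500 UMIs, which leaves fewer genes measured, gave 4 in alveolar macrophages, 6 in C1q, 3 in Ly6i Chil1 Gpnmb, 5 in neutrophils, 0 in cDC1, 5 in Il17a-high T cells, 1 in the other CD3 barcodes and 0 in ILC2. With or without Cd4 Il17a-high T cells had 4 and 5. Doublet removal gave 1 in cDC1 and 1 in B cells, the 5% mitochondrial limit 1 in each of them, and the 25% limit 1 in B cells. Median-of-ratios scaling gave 1 in B cells; it shifted all genes by 0.14 in alveolar macrophages, 0.12 in Il17a-high T cells and 0.15 in B cells. A minimum of 20 UMIs gave 6 in B cells, and 1 UMI in each library gave 8 there and 5 in ILC2.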

Other observations

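Barcodes over the mitochondrial limit with at least 300 genes, 1923 in tamoxifen and 2301 in oil, had 418 CPM of Hk2 in tamoxifen and 560 CPM in oil (-0.42), against 135 and 167 CPM in the kept barcodes (-0.30). Ndrg1 had 30.9 CPM in tamoxifen and 16.4 CPM in oil there (0.91), and Vegfa 37.0 and 28.9 CPM (0.36). Barcodes that met no gate had 99.5 CPM of Vegfa in tamoxifen and 139 CPM in oil (-0.48), the opposite direction to C1q macrophages, and 61.5 and 54.2 CPM of Ndrg1 (0.18).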
